A study of Sus scrofa with 12 samples.

Results

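Maturation-promoting factor, the kinase that drives the oocyte through meiosis, was followed here through the genes of its subunits and direct regulators: CDK1, CCNB1, CCNB2, CDC25A, CDC25B, CDC25C, WEE2, PKMYT1, CKS1B and CKS2. The 10 genes were listed by name for their role in the pathway, with earlier results of these data known. Of these, 9 were found among the 31908 Ensembl identifiers of each library, of which 15029 carry a gene symbol. CKS1B had no matching identifier, so its level was not analysed here. PKMYT1 had a mean under 1 FPKM (fragments scaled by the length of the transcript and by library size) and was handled apart. The other 8 were among the 7013 genes whose mean over all libraries reached 1 FPKM, which were tested together.

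Pools of denuded porcine oocytes gave 12 libraries, 4 for oocytes that had not yet been cultured (0h) and 4 each after 22h and 46h in maturation medium. The oocytes came from antral follicles of prepubertal gilts and matured as cumulus-oocyte complexes in a medium with follicular fluid, epidermal growth factor and gonadotropins, after which the cumulus cells were stripped. The 0h group was taken before culture, and the cultured groups differ from it both in meiotic stage and in time in medium, which cannot be told apart. cDNA was primed with oligo-dT and amplified by SMART-Seq2, so each value measures polyadenylated RNA relative to the rest of the library, and tail length was not measured. In pooled oocytes, a lower share of cells with a transcript and less transcript per cell cannot be told apart. The labels do not say whether replicates came from separate collections of ovaries, so the p-values describe the spread between these libraries.

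Maturation-promoting factor is a complex of the kinase CDK1 with a B-type cyclin. In the arrested oocyte CDK1 is held inactive by phosphate on a neighbouring threonine and tyrosine, which WEE2 and PKMYT1 add and CDC25 phosphatases remove. Meiosis resumes when the phosphatases prevail, cyclin B is destroyed at the exit from the first division, and kinase activity is restored for the arrest in the second. Much of this is controlled at the level of protein, and the fully grown oocyte works largely from stored mRNA.

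The sites on which these regulators act can be read in the porcine genes. The following stretches were taken from RefSeq models on Sscrofa11.1, 5′ to 3′ on the coding strand. In CDK1 the capitals mark codons 14 and 15, for the threonine and tyrosine that WEE2, PKMYT1 and CDC25 act on; the stretch lies at chr14:64236430-64240326 on the plus strand and crosses an exon junction, with the intron left out. In CCNB1 (chr16:47339096-47339125, plus strand) and CCNB2 (chr1:112938915-112938944, minus strand) they mark codons 42 to 45 and 32 to 35, which open the destruction box through which the cyclins are marked for degradation.
CDK1: aaaattggagaaggtACCTATggagttgtg
CCNB1: aggccaAGAACTGCTCTTggagacatcggt
CCNB2: atcaggAGGGCAGTTTTAgaagaaattgga

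The libraries had the character of oocytes. All 10 matched oocyte markers of 13 listed were above 0 in every library, although the sample titles speak of ovarian cells. Their summed level moved with the stage, between 13791 and 19318 FPKM at 0h, between 16433 and 23368 FPKM at 22h, and between 4008 and 7478 FPKM at 46h. BMP15 stayed between 1737 and 8534 FPKM in all libraries, while the lowest values of ZP3 (51.5 FPKM), GDF9 (33.3 FPKM), FIGLA (1.04 FPKM) and ZAR1 (0.5 FPKM) were all at 46h. Of 15 matched cumulus and granulosa markers, 13 never passed 0.33 FPKM, and LHCGR, INHA and AMHR2 were at 0 throughout. The exceptions were VCAN (29 to 136 FPKM) and STAR (2.06 to 7.58 FPKM). The whole list summed to between 36.7 and 85.5 FPKM at 0h, between 52 and 82.2 FPKM at 22h and between 111 and 139.9 FPKM at 46h. Without VCAN and STAR it summed to at most 0.76 FPKM in any library. Of 5 blood and stroma markers, 4 never passed 0.19 FPKM. PECAM1 brought the sum to between 7.75 and 10.9 FPKM at 0h, between 6 and 20.4 FPKM at 22h and between 21 and 23.8 FPKM at 46h. The part of these marker lists in the results was not tested. The share of FPKM in mitochondrially encoded proteins moved with the stage (between 1.79% and 3.76% at 0h, 8.06% and 12% at 22h, and 12.8% and 16.7% at 46h), and its part in the differences between stages was not tested. Replicate 4 at 0h stood apart from the others of its stage, with correlations of 0.934 to 0.970 over the genes tested, against up to 0.988 between other 0h libraries.

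CDK1, the catalytic subunit, was present at 0h and 22h and close to absent at 46h. At 0h the 4 libraries held 110.5, 135, 89.8 and 65.9 FPKM. At 22h they held 83.1, 103, 70.2 and 82.5 FPKM. At 46h they held 0.24, 0.32, 0.22 and 0.32 FPKM. The early stages overlapped, and every 46h library lay below every earlier one, the lowest 0h library being 206 times the highest 46h library. The mean fell from 100.2 ± 29.3 FPKM (SD, n = 4) at 0h to 0.275 ± 0.0526 at 46h, a ratio of 364. On the log2(FPKM + 1) scale, which understates the change of genes that end near 0, the difference was −6.26 (SE 0.202, limma with Benjamini-Hochberg adjustment, adjusted p = 1.3e-11) against 0h and −6.06 (adjusted p = 2.38e-11) against 22h. With a pseudocount of 0.1 in place of 1 these became −8.03 and −7.82. Between 0h and 22h the difference was −0.21, with a 95% confidence interval from −0.64 to 0.23 (adjusted p = 0.466).

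The cyclin subunits parted at 46h. CCNB1, cyclin B1, read 877, 827, 503 and 254 FPKM at 0h. At 22h it read 373, 763, 727 and 855 FPKM, within much the same range. At 46h it read 1081, 1185, 1183 and 1323 FPKM, above every earlier library. The mean at 46h was 1193 ± 99.2 FPKM, which is 1.94 times that at 0h. CCNB1 was higher at 46h than at 0h by 1.11 on the log2 scale (SE 0.348, adjusted p = 0.0124), or by 0.73 without replicate 4 at 0h (adjusted p = 0.026). Against 22h the difference was 0.87 with an adjusted p of 0.051, which missed the threshold although the ranges did not overlap. This call was sensitive to the processing: it passed with median-of-ratios scaling (1.23, adjusted p = 0.0203), with quantile normalization (0.89, adjusted p = 0.0246), in a fit of only the groups compared (adjusted p = 0.00843) and without replicate 4 at 0h (adjusted p = 0.00833), among others. It was farther from the threshold with no filter on low values (adjusted p = 0.142), with TPM (0.78, adjusted p = 0.097), without replicate 1 at 22h (0.61, adjusted p = 0.162) and without replicate 4 at 46h (adjusted p = 0.109).

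CCNB2, cyclin B2, began near the level of CCNB1 and ended far below it. Its values were 538, 592, 405 and 204 FPKM at 0h, and 323, 436, 515 and 556 FPKM at 22h. At 46h they were 21.6, 26.6, 21.9 and 28.9 FPKM, below every earlier library. CCNB2 fell by 3.98 on the log2 scale between 0h and 46h (SE 0.289, adjusted p = 2.68e-08) and by 4.14 between 22h and 46h (adjusted p = 3.96e-08), with a ratio of means of 17.6 and 18.5. From 0h to 22h neither cyclin passed the test (CCNB1 0.23, adjusted p = 0.637; CCNB2 0.15, adjusted p = 0.712), and leaving out replicate 4 at 0h turned both estimates negative (−0.14 and −0.17).

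**Figure D1:**
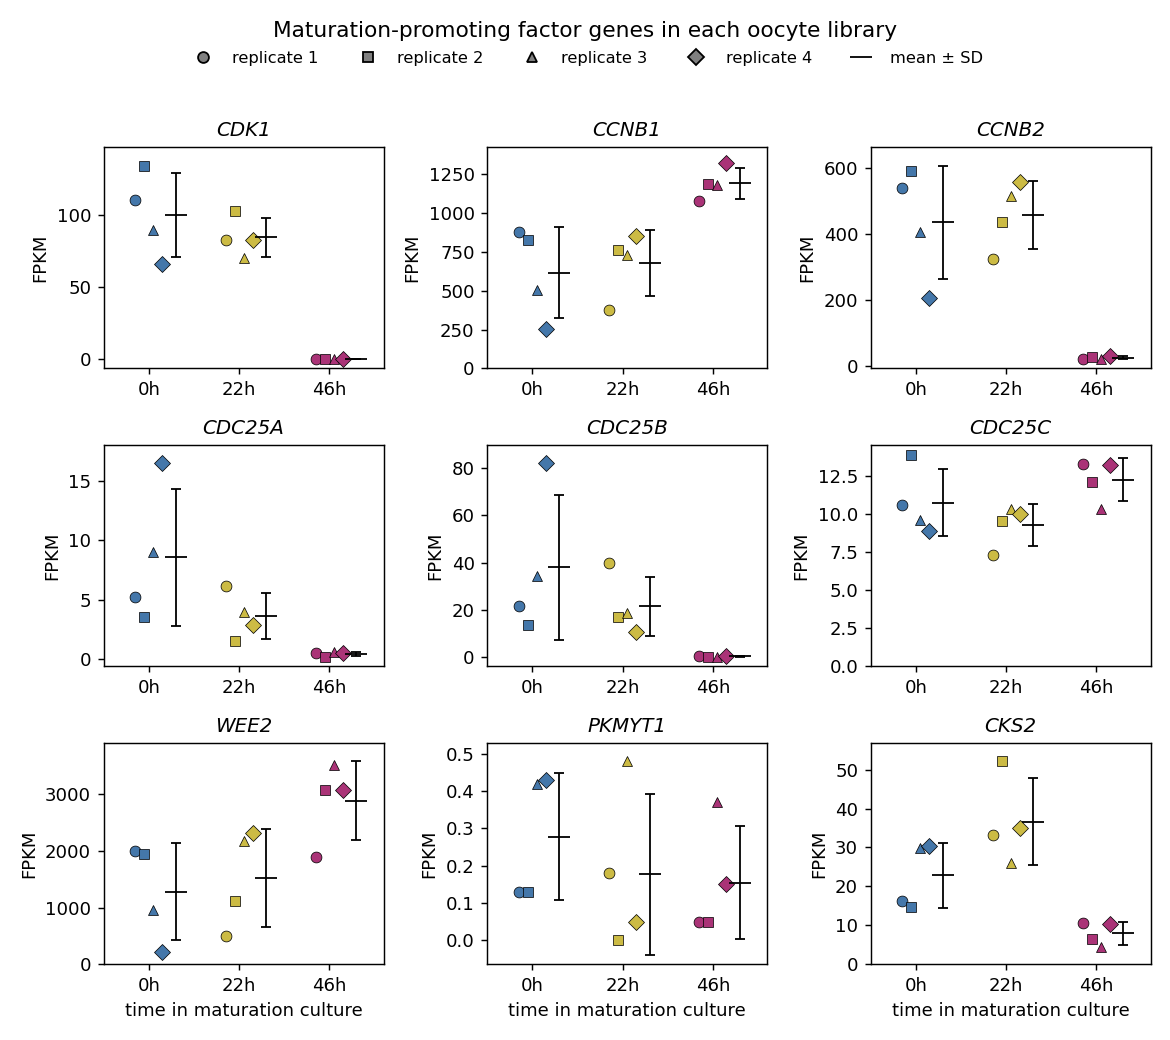
FPKM of the 9 genes found, each panel with its own linear axis, against time in maturation culture. Each symbol is 1 library with its shape giving the replicate number, and the bar to the right of each stage is the mean with its SD (n = 4). CDK1, CCNB2, CDC25A and CDC25B sat near the bottom of their axes in every 46h library, while CCNB1 sat above its earlier values (1081 to 1323 FPKM at 46h).

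The CDC25 phosphatases, which remove the inhibitory phosphates from CDK1, did not move alike. CDC25B, tied in rodent oocytes to the resumption of meiosis, stood at 21.5, 13.7, 34.3 and 82 FPKM at 0h. At 22h it stood at 39.6, 16.8, 18.7 and 10.6 FPKM. At 46h all libraries were between 0.11 and 0.35 FPKM. No 46h library reached the lowest earlier one, and the ratio of means between 0h and 46h was 165, or 101 without replicate 4 at 0h. The decrease was −4.68 on the log2 scale against 0h (SE 0.447, adjusted p = 4.78e-07) and −4.04 against 22h (adjusted p = 4.28e-06), or −6.58 and −5.92 with a pseudocount of 0.1.

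CDC25A, which also serves the mitotic cell cycle, read 5.25, 3.52, 9.02 and 16.5 FPKM at 0h. At 22h it read 6.16, 1.52, 3.96 and 2.85 FPKM. At 46h it read 0.48, 0.2, 0.58 and 0.5 FPKM, again below every earlier library. CDC25A fell by 2.55 on the log2 scale from 0h to 46h (SE 0.371, adjusted p = 3.34e-05) and by 1.59 from 22h to 46h (adjusted p = 0.00287); with a pseudocount of 0.1 the differences were −3.83 and −2.69. Between 0h and 22h its ranges overlapped, and the difference of −0.96 missed the threshold (adjusted p = 0.0629). It passed with median-of-ratios scaling (adjusted p = 0.0382), without replicate 2 at 0h (−1.26, adjusted p = 0.0172) and without replicate 1 at 22h (−1.21, adjusted p = 0.0264), and it was smaller without replicate 4 at 0h (−0.61, adjusted p = 0.146) and without replicate 2 at 22h (−0.70, adjusted p = 0.189).

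CDC25C, the family member known from the entry into mitosis, was not called in any comparison as analysed. It read 10.6, 13.9, 9.61 and 8.87 FPKM at 0h, 7.28, 9.53, 10.3 and 9.96 FPKM at 22h, and 13.3, 12.1, 10.3 and 13.2 FPKM at 46h. The ranges of all stages overlapped. The difference between 46h and 0h was 0.18 with a 95% confidence interval from −0.18 to 0.55 (adjusted p = 0.363), and that between 46h and 22h was 0.37 (adjusted p = 0.089). Quantile normalization moved these to 0.82 (adjusted p = 0.00235) and 0.84 (adjusted p = 0.00308), both past the thresholds, and median-of-ratios scaling moved the second to 0.69 (adjusted p = 0.0115). Under each scaling tried CDC25A and CDC25B were lower at 46h than at both earlier stages, and CDC25C was not.

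Of the inhibitory kinases, WEE2 was among the most abundant transcripts and PKMYT1 was listed below 0.5 FPKM throughout. WEE2, the WEE1-family kinase particular to the germ line, read 2008, 1950 and 950 FPKM in replicates 1 to 3 at 0h and 222 in replicate 4. At 22h it read 491, 1119, 2171 and 2316 FPKM. At 46h it read 1888, 3085, 3518 and 3070.4 FPKM. The stages overlapped, since replicate 1 at 46h lay within the earlier range. WEE2 passed the test as higher at 46h than at 0h, by 1.56 on the log2 scale (SE 0.62, adjusted p = 0.0406), with a ratio of means of 2.25. Without replicate 4 at 0h the difference was 0.86 and was not called (adjusted p = 0.113). The call also ended without replicate 3 at 0h, replicate 2 at 22h, or replicate 2, 3 or 4 at 46h (adjusted p = 0.0505 to 0.0901), although the difference stayed at 1.45 to 1.56. It was also lost with TPM (1.46, adjusted p = 0.0656) and with no filter on low values (adjusted p = 0.105). Against 22h the difference of 1.13 did not pass (adjusted p = 0.15), but passed without replicate 4 at 0h (adjusted p = 0.0367) and in a fit of only the groups compared (adjusted p = 0.0425). The mean of WEE2 over the 12 libraries was 1899 FPKM, in rank 57 of all identifiers.

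PKMYT1, the membrane-bound inhibitory kinase of CDK1, was between 0 and 0.48 FPKM in every library and at 0 in replicate 2 at 22h. Its stage means of 0.277, 0.177 and 0.155 FPKM did not pass an exact two-sided permutation test (p = 0.457, 0.914 and 0.229 for 22h against 0h, 46h against 22h and 46h against 0h). WEE1, the somatic counterpart of WEE2, was at most 0.12 FPKM in any library. The number of reads behind such low values is not given in the sources used here, so they are listed as measured.

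CKS2, a small subunit that binds CDK1 and helps it to reach substrates already phosphorylated, was highest at 22h. It read 16.3, 14.8, 29.9 and 30.3 FPKM at 0h and 33.1, 52.3, 25.9 and 35 FPKM at 22h. At 46h it read 10.5, 6.55, 4.53 and 10.3 FPKM, below every earlier library. The decrease was −1.40 on the log2 scale against 0h (SE 0.3, adjusted p = 0.000951) and −2.09 against 22h (adjusted p = 5.56e-05). The early difference of 0.69 did not pass (adjusted p = 0.097) and passed only without replicate 4 at 0h among the libraries left out in turn (0.84, adjusted p = 0.0462).

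Counted over the 8 genes tested, 5 fell and 2 rose between 0h and 46h, where 39.1% of all genes tested were called lower and 16.8% higher. From 22h to 46h, 5 fell and 0 rose, against 32.6% and 9.87% of all genes. From 0h to 22h, 0 were called in either direction by limma, against 18.9% lower and 7.84% higher; at an unadjusted p under 0.05 there were 2, CDC25A and CKS2. The genes that fell against 22h and against 0h were CDK1, CCNB2, CDC25A, CDC25B and CKS2, in comparisons that share the 46h libraries. The median log2 fold change of the 8 was −0.02, −1.84 and −1.98 from 22h against 0h to 46h against 0h, beside 0.00, −0.26 and −0.25 over all genes tested. The median over all genes at 46h against 0h depended on the scaling (0.06 with median-of-ratios scaling, 0.34 with quantile normalization and −0.35 with TPM).

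**Figure D2:**
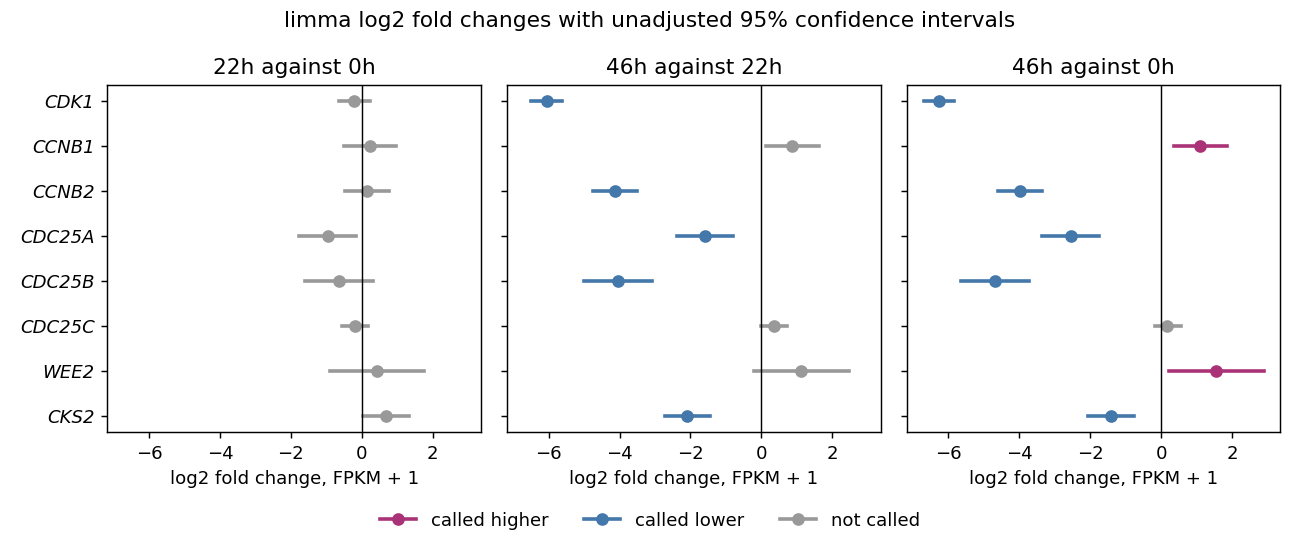
Log2 fold change on the FPKM + 1 scale for the 8 genes tested, in the 3 comparisons. Points are limma estimates and bars are 95% confidence intervals without adjustment; colours give the call at an adjusted p under 0.05 and a fold change over 1.5. CDK1 lay farthest to the left at 46h (−6.26 against 0h), and no gene was called at 22h against 0h.

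Since FPKM is relative to transcript length, levels may be set beside each other. At 0h the order of the means was WEE2 (1283 FPKM), CCNB1 (615), CCNB2 (435), CDK1 (100.2), CDC25B (37.9), CKS2 (22.8), CDC25C (10.7), CDC25A (8.57) and PKMYT1 (0.277). WEE2, CCNB1 and CCNB2 overlapped in range there. CDC25B overlapped with CDK1, CKS2, CDC25C and CDC25A, and CDC25A also with CKS2 and CDC25C. At 46h the order was WEE2 (2890.3 FPKM), CCNB1 (1193), CCNB2 (24.7), CDC25C (12.2), CKS2 (7.96), CDC25A (0.44), CDK1 (0.275), CDC25B (0.23) and PKMYT1 (0.155). WEE2 and CCNB1 then stood clear of all the others, CDC25C and CKS2 overlapped, and so did CDC25A, CDK1, CDC25B and PKMYT1.

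Ratios of the FPKM of 2 genes within a library do not depend on how libraries are scaled to each other. The tests below add 1 to each FPKM, so where a gene is near 0 the tested ratios do depend on it. The ratio of CCNB1 to CCNB2 lay between 1.24 and 1.63 at 0h, between 1.16 and 1.75 at 22h, and between 44.6 and 54.1 at 46h. That of CCNB1 to CDK1 lay between 3.85 and 7.94 at 0h, between 4.49 and 10.4 at 22h, and between 3704 and 5379 at 46h. CCNB2 fell, but by less than CDK1, and their ratio lay between 3.1 and 4.87 at 0h and between 83 and 99.4 at 46h. In all these pairs the 46h libraries were separate from the earlier ones.

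Among the phosphatases, CDC25B exceeded CDC25C in 3 of 4 libraries at 0h (ratios 0.99 to 9.24) and in all of them at 22h (1.06 to 5.44), whereas at 46h its ratio to CDC25C was 0.0107 to 0.0264. The ratio of CDC25A to CDC25C lay between 0.254 and 1.86 at 0h and between 0.0165 and 0.0564 at 46h. The ratio of WEE2, which inhibits CDK1, to CDC25B, which activates it, lay between 2.71 and 142 at 0h, between 12.4 and 219 at 22h, and between 5394 and 31982 at 46h. WEE2 to CDC25C changed less, with 25 to 189.8 at 0h and 142 to 342 at 46h, and these ranges overlapped. Over 7 pairs and 21 tests on log2 ratios of FPKM + 1, the exact two-sided permutation test gave its smallest possible value, p = 0.0286, for 6 pairs at 46h against both earlier stages. Adjusted over the 21 tests this became 0.05, at the threshold and not under it. For WEE2 to CDC25C the exact p was 0.143 against 22h and 0.0571 against 0h, and at 22h against 0h no pair passed (exact p = 0.286 to 0.571).

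**Figure D3:**
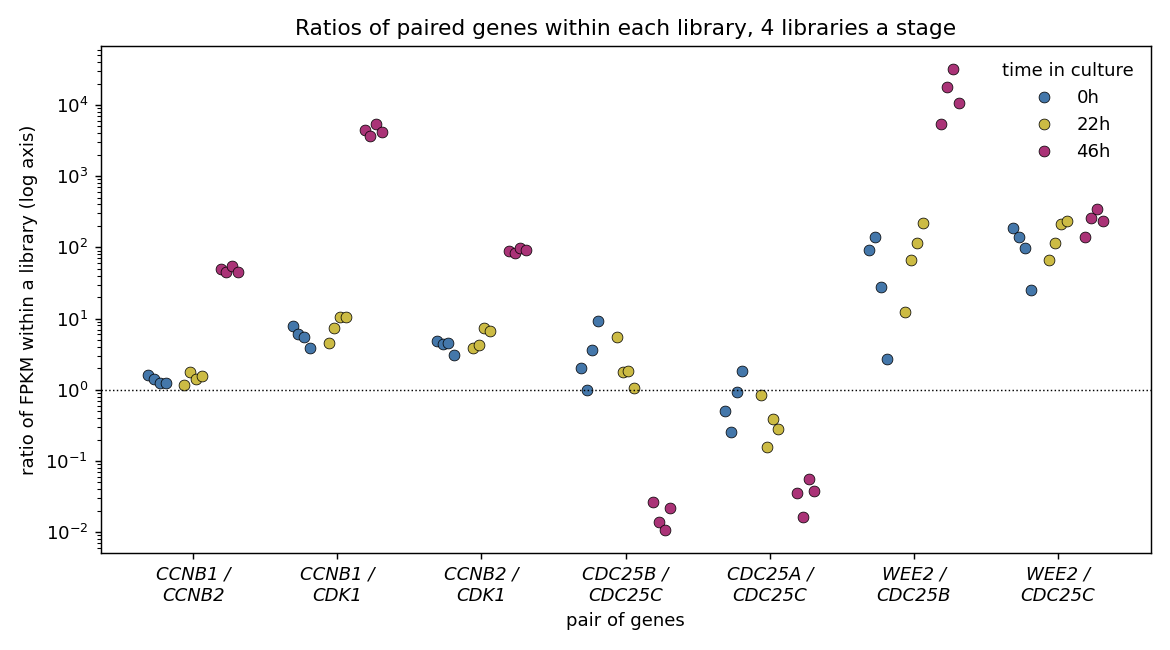
Ratio of FPKM within each library for 7 pairs of genes, on a log axis, with 1 point for each of the 4 libraries of a stage. The dotted line marks equal FPKM. The 46h points were apart from the 0h and 22h points in 6 pairs, most for CCNB1 to CDK1 (3704 to 5379 at 46h), and overlapped them for WEE2 to CDC25C.

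Some of the genes varied together from library to library within a stage. Replicate 4 at 0h and replicate 1 at 22h had the lowest CCNB1, CCNB2 and WEE2 of their stages and the highest CDC25A and CDC25B. Taken as deviations from the stage mean of log2(FPKM + 1) over the 12 libraries, CCNB1 had a correlation of 0.95 with CCNB2, 0.95 with WEE2 and −0.95 with CDC25B. Without replicate 4 at 0h and replicate 1 at 22h these were 0.86, 0.82 and −0.83. CCNB2 with WEE2 had 0.95 (0.85 without them), CDC25B with WEE2 −0.93 (−0.76) and CDK1 with CDC25A −0.89 (−0.94). Among the other pairs, CDC25A with WEE2 went from −0.74 to −0.29 without them, and CDC25C with WEE2 from 0.66 to 0.31. Over all 12, CKS2 ran from −0.57 with WEE2 to 0.46 with CDC25B, with −0.25 for CDK1 and −0.40 for CCNB1. Without the same libraries, CKS2 had −0.75 with WEE2 and 0.50 with CDC25B. The points share library and scaling, and the values are given as a description. Replicate 4 at 0h also had the most genes at or above 1 FPKM (7895) and the lowest summed oocyte markers of its stage (13791 FPKM, against 15473 to 19318), while replicate 1 at 22h had the highest mitochondrial share of its stage (12%); their part in this pattern was not tested. With both libraries left out, a setting chosen after seeing the data, the 5 decreases at 46h were kept in both comparisons, and CCNB1 and WEE2 were higher at 46h than at 0h by 0.73 (adjusted p = 0.00302) and 0.86 (adjusted p = 0.0269).

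**Figure D4:**
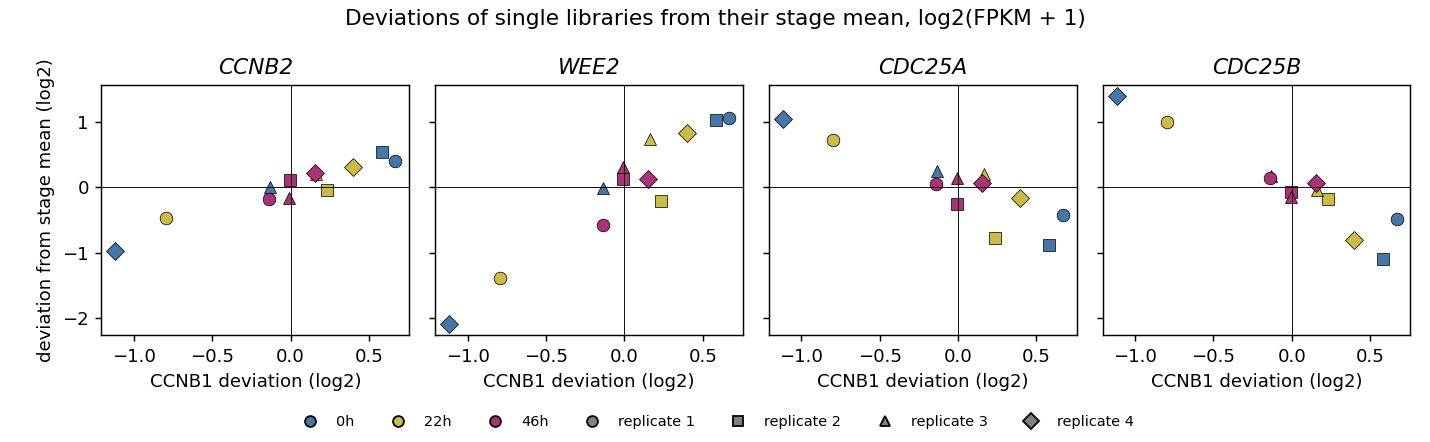
Deviation of each library from the mean of its stage in log2(FPKM + 1), for CCNB1 on the horizontal axis and CCNB2, WEE2, CDC25A or CDC25B on the vertical axis. Colours give the stage and shapes the replicate number. Replicate 4 at 0h and replicate 1 at 22h lie farthest to the left in every panel, and the 46h libraries lie near 0 on the horizontal axis.

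The genes whose pattern over the 12 libraries was most like that of CDK1, among 2687 named genes whose mean reached 10 FPKM, were PAIP2 (Pearson r = 0.997), SPC25 (0.996) and RBX1 (0.996). PAIP2, a repressor of the poly(A)-binding protein, had stage means of 363, 297 and 1.83 FPKM, and SPC25, a kinetochore subunit, had 166, 164 and 4.49 FPKM. For CCNB1 they were CTBS (0.995), DBT (0.986) and FBXL5 (0.986), and for WEE2 they were TYMS (0.982), FBXL5 (0.979) and TFG (0.978). TYMS, thymidylate synthase, had means of 77.4, 108 and 219 FPKM.

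The other genes around the kinase were taken from 6 lists with 59 entries, of which 51 matched an identifier and 34 were tested. Between 0h and 46h 10 of these rose and 12 fell, from 22h to 46h 3 rose and 13 fell, and from 0h to 22h 7 rose and 4 fell. In the same order, 16.8%, 9.87% and 7.84% of all genes tested were called higher and 39.1%, 32.6% and 18.9% lower. The median log2 fold change of the 34 was −0.24, −0.22 and 0.37, beside −0.25, −0.26 and 0.00 over all genes tested. With all 4 other scalings and with each library left out, 17, 10 and 7 of these 22, 16 and 11 calls were kept. Of the 12, 18 and 23 genes not called, 8, 8 and 7 were called under some other scaling or with some library left out. The 17 matched genes under the filter, among them CCNA1, CCND1, CCND2, CDK6 and CDKN1B, reached at most 1.58 FPKM in any library.

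CDK7, CCNH and MNAT1 encode the kinase that activates CDK1 by phosphorylating its activation loop. CDK7 was 189 ± 81.2 FPKM at 0h, 34.7 ± 4.22 at 22h and 7.86 ± 2.29 at 46h, and it fell at each step, by 2.29 (adjusted p = 0.000108) and by 2.04 (adjusted p = 7.99e-05) on the log2 scale. Its partner MNAT1, an assembly factor, was higher at 22h than at 0h by 0.61 (adjusted p = 0.0269), a call that ended without any 1 of 5 libraries, and lower at 46h than at 22h (−0.82, adjusted p = 0.00318), which ended under median-of-ratios scaling and quantile normalization. The difference between 46h and 0h did not pass (−0.20). Cyclin H, CCNH, was called lower at 22h (−0.70, adjusted p = 0.0488), and this ended under each of the 4 other scalings.

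In the list of other cyclins, CDKs and WEE1, 7 of 12 matched genes were tested. CDK2, the kinase of the cyclins E and A, rose from 11.4 ± 4.15 FPKM at 0h to 21.8 ± 2.43 at 22h (0.93 on the log2 scale, adjusted p = 0.00442) and then fell to 0.815 ± 0.22 at 46h (−3.65 against 22h, adjusted p = 5.59e-09). CCNE1, cyclin E1, was higher at 46h than at 0h by 0.98 (adjusted p = 0.000386), and CCNE2 was lower (−1.17, adjusted p = 8.04e-05). CCNB3, a B-type cyclin of meiosis, held 9.89, 13.1 and 8.36 FPKM at the stages in turn and was called lower only at 46h against 22h (−0.59, adjusted p = 0.0134), which ended under median-of-ratios scaling and quantile normalization. Of the CDK inhibitors, CDKN1A and CDKN2D were tested, and neither was called as analysed; their differences at 46h against 0h were −0.49 (adjusted p = 0.0747) and 0.10 (adjusted p = 0.716). CDKN1A was called lower at 46h against 0h with TPM (−0.62), and against both earlier stages without replicate 3 at 46h (−0.76 and −0.66). CDKN2D was called higher under quantile normalization at 22h and at 46h against 0h (0.73 and 0.78). It was also called higher at 22h with TPM computed without mitochondrially encoded genes (0.67) and without replicate 1 at 22h (0.64), and lower at 46h against 22h without replicate 4 at 46h (−0.62).

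Greatwall kinase, MASTL, keeps the phosphatase that opposes CDK1 in check through ENSA. ARPP19 and PPP2R2D, listed with them, had no matching identifier, so their levels were not analysed. MASTL rose from 41.5 ± 13.2 FPKM at 0h to 83.3 ± 6.47 at 46h (1.05, adjusted p = 0.0012), while ENSA fell from 8.75 ± 1.2 to 1.78 ± 0.363 FPKM (−1.81, adjusted p = 5.76e-07). Of the subunits of that phosphatase, PP2A, the scaffold PPP2R1B and the catalytic PPP2CB were higher at 46h than at 0h (0.78 and 1.02), and the regulatory PPP2R2A and PPP2R2B were lower (−0.75 and −1.10). The call for PPP2R2A ended under median-of-ratios scaling and quantile normalization, and that for PPP2R2B under quantile normalization. PPP2CA was not called in any comparison as analysed, but was called higher at 46h against 0h under quantile normalization (0.94).

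Cyclin destruction depends on the anaphase-promoting complex, which CDC20 activates and FBXO5 (EMI1) inhibits. CDC20 was 23.2 ± 1.99 FPKM at 0h and 54 ± 23.4 at 22h, and was higher at 22h (1.08, adjusted p = 0.00923) and at 46h (0.98, adjusted p = 0.00662) than at 0h. FBXO5 was 433 ± 195 FPKM at 0h, 612 ± 209 at 22h and 121 ± 33.8 at 46h, and was lower at 46h than at 0h (−1.74, adjusted p = 0.000996). FBXO43, listed with them, had no matching identifier, and FZR1 was under the filter, so neither was tested.

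Of the kinases and adaptors that act on CDC25 and WEE2, 13 were tested, and 5 rose and 4 fell between 0h and 46h, where 16.8% of all genes tested were called higher and 39.1% lower. The share called higher over all genes moved with the scaling. As reported, 1179 of the 7013 genes were called higher at 46h against 0h. With median-of-ratios scaling 2046 were, and with quantile normalization 2823 were. CHEK1, a kinase that restrains CDC25, rose from 13.8 ± 6.11 to 66.4 ± 5.41 FPKM (2.29, adjusted p = 5.15e-05), whereas CHEK2, of like function, fell from 16.3 ± 4.7 to 2.05 ± 0.0976 FPKM (−2.46, adjusted p = 9.1e-08). BORA, the activator of Aurora A and through it of PLK1, rose from 30.5 ± 4.93 to 96.7 ± 12.4 FPKM (1.64, adjusted p = 1.15e-06), and PLK1 itself was 2.61 and 1.64 FPKM and was not called, except as lower without replicate 3 at 46h. MOS, the kinase that holds the arrest in the second meiotic division through MAP kinase, was 1249 ± 423 FPKM at 0h, 1831 ± 820.2 at 22h and 692 ± 260.2 at 46h; it was called lower at 46h against 22h (−1.34, adjusted p = 0.00878), except under median-of-ratios scaling. The 14-3-3 proteins, which hold phosphorylated CDC25 in place, divided: YWHAB (1.03, adjusted p = 2.19e-05) and YWHAH (1.32, adjusted p = 0.00404) were higher at 46h than at 0h, and YWHAQ was lower by far (−2.85, adjusted p = 1.83e-08). YWHAZ was also called lower (−0.66, adjusted p = 0.0069), but under quantile normalization its difference was 0.01.

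**Figure D5:**
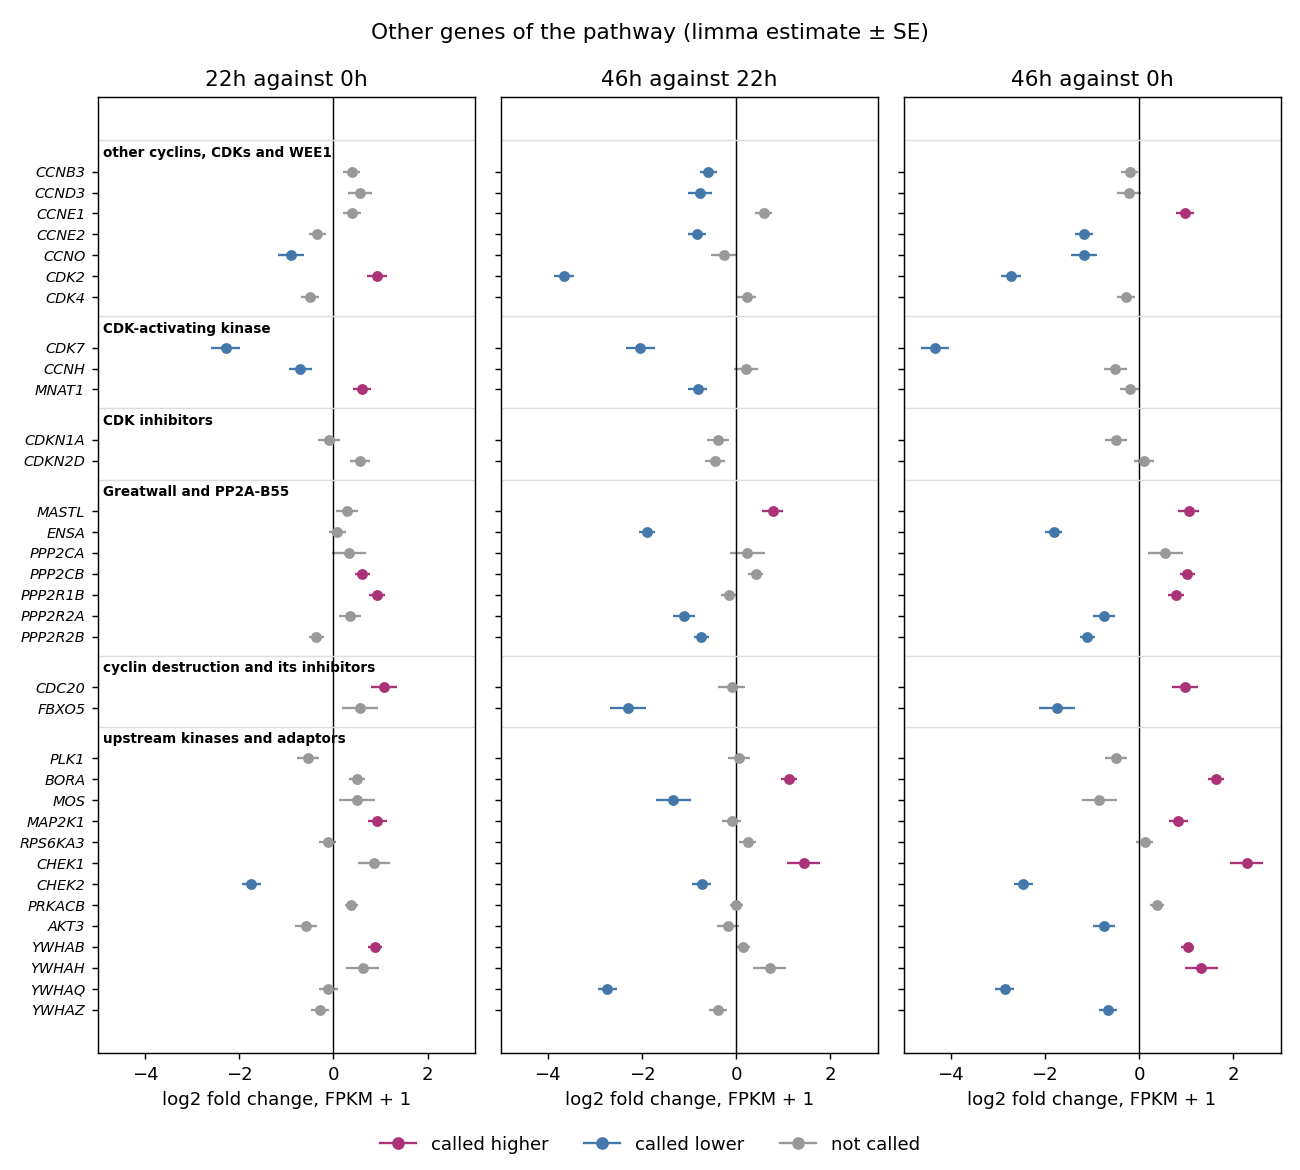
Log2 fold change on the FPKM + 1 scale, with its SE, of the 34 tested genes in the 6 lists, for the 3 comparisons. Colours give the call at an adjusted p under 0.05 and a fold change over 1.5. CDK7 was lower in all 3 comparisons, CDK2 was higher at 22h and lower at 46h, and CHEK1 had the highest value at 46h against 0h (2.29).

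Stored mRNAs of oocytes are regulated through sequences near their 3′ ends, where the cytoplasmic polyadenylation element lies close to the polyadenylation signal. The last 150 bases of the longest RefSeq 3′ UTR of each gene on Sscrofa11.1 were searched on the sense strand for TTTTAT, and for AATAAA or ATTAAA. CDC25C had no annotated 3′ UTR of that length. In the 9 others a polyadenylation signal was found, beside 72.2% of 16630 genes. TTTTAT was found in WEE2 and CKS1B, with 2 copies in each, beside 18.1% of genes. The stretch is shown for WEE2, which held 2 copies of TTTTAT, for CCNB1, which also ended high, and for CDK1 and CCNB2, which fell most in level among the subunits; capitals mark TTTTAT in WEE2, at chr18:8171143-8171172 (minus strand), and the polyadenylation signal in CCNB1 (chr16:47348351-47348380, plus), CDK1 (chr14:64255251-64255280, plus) and CCNB2 (chr1:112907056-112907085, minus).
WEE2: gtaaataaaggtTTTTATcttgtccaaagc
CCNB1: ttggttaagaaaAATAAAacaatccttaga
CDK1: aatggcaaaaaaAATAAAggaattattccc
CCNB2: atattgaggaaaATTAAAgctattgatttt

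In WEE2 the TTTTAT shown starts 28 bases before the annotated end, after the AATAAA that starts 37 bases before it. In CKS1B the last TTTTAT starts 13 bases before the end, likewise after the signal, which starts 27 bases before it. The other copy in CKS1B starts 64 bases before the end, ahead of the signal. CCNB1, CDK1 and CCNB2 held no TTTTAT in this window, which says only that these letters do not occur there. The CDK1 window is the far end of a 3′ UTR of 6616 bases, from another RefSeq model than its coding stretch. Whether oocytes use this end was not tested. Variants of the element were not searched, and the match is a description of the annotated ends.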

How the data were processed

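RNA-seq of pooled porcine oocytes at 0h, 22h and 46h was analysed, with groups from the treatment labels. The series text gives 24h for the middle stage, whereas labels and methods give 22h, used here. The authors trimmed reads with Trim Galore, aligned them to Sscrofa11 with STAR and deposited RSEM FPKM values per Ensembl gene, on which all tests were run. Read counts were not used here, so depth and counting precision are unknown. Symbols came from a gene name table, and positions and sequences from RefSeq on Sscrofa11.1.

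For the 7013 genes whose mean reached 1 FPKM, limma 3.58.1 (R 4.3.3; lmFit, eBayes with trend) was run on log2(FPKM + 1) of the 12 libraries with stage as factor. Two-sided p-values were adjusted over these genes by the Benjamini-Hochberg method, and a call needed an adjusted p under 0.05 and a fold change over 1.5. Ratios and PKMYT1 were tested by exact permutation of 4 against 4 libraries (70 arrangements). No library pair was identical. The members and lists were chosen with earlier results of these data known. Genes named were the 10 members, genes of the 6 lists, the 3 genes most correlated with CDK1, CCNB1 and WEE2, and cell type markers. The scripts were tested on simulated data. Alternatives were other pseudocounts, filters, scalings, variance models, thresholds and fits, the replicate number as a block, and each library left out. Figures used matplotlib 3.10.9 under Python 3.11.15.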

Additional observations from a re-analysis of the deposited data

How the results depend on the processing

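The number of members called lower at 46h, 5 against 22h and 5 against 0h, was 4 with a mean of at least 5 FPKM, a filter that CDC25A does not pass, and 5 under the other alternatives run. The number of members called higher at 46h against 22h, 0 as reported, was 1 with a mean of at least 5 FPKM and with both 0h replicate 4 and 22h replicate 1 left out (chosen after seeing the data), 2 with median-of-ratios scaling, with quantile normalization and in a fit of only the groups compared, and 0 to 2 with single libraries left out. The number higher at 46h against 0h, 2 as reported, was 1 with no filter on low values, with TPM and with the replicate block, 3 with quantile normalization, and 1 to 2 with single libraries left out. At 22h against 0h, the number higher was 0 to 1 with single libraries left out; the number lower was 1 with median-of-ratios scaling, with the replicate block and without both libraries, and 0 to 1 with single libraries left out.

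The replicate numbers share no stated origin. Same-numbered libraries had correlations of −0.466 to 0.381 of their deviations, and the replicate block moved the all-gene count at 46h against 0h from 1179 to 1156 higher and from 2743 to 2738 lower. With the block, CDC25A passed at 22h against 0h (−0.96, adjusted p = 0.042) and WEE2 did not at 46h against 0h (adjusted p = 0.0607). The exact sign-flip permutation test of 4 pairs cannot go below p = 0.125, which it gave for 6 ratio pairs at 46h and for WEE2 to CDC25C at 46h against 22h.

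Among the members and their ratios, signs turned in differences that did not pass as reported. With single libraries left out, the differences at 22h against 0h ran from −0.14 to 0.50 for CCNB1, −0.17 to 0.34 for CCNB2 and −0.27 to 0.90 for WEE2. The log2 ratios ran from −0.01 to 0.19 for CCNB1 to CCNB2, −0.94 to 0.09 for CDC25B to CDC25C, −0.09 to 1.88 for WEE2 to CDC25B and −0.00 to 0.98 for WEE2 to CDC25C. The end past 0 came without 22h replicate 2 for CCNB1 to CCNB2 and without 0h replicate 4 for the others. CCNB2 was −0.02 without both libraries. PKMYT1 at 46h against 22h ran from −0.10 to 0.10 with single libraries left out (0.02 without 46h replicate 1 or 2), and was 0.03 with a pseudocount of 0.1 or median-of-ratios scaling.

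Over all genes, the counts called higher at 46h against 0h were 2046 with median-of-ratios scaling, 2823 with quantile normalization and 512 at a fold change over 2; those at 46h against 22h were 1407, 1882 and 196 against 692 as reported. Those lower at 46h against 22h were 1419 with a mean of at least 5 FPKM and 1508 with quantile normalization against 2283, and those lower at 46h against 0h 1575 with a mean of at least 5 FPKM. At 22h against 0h, 1024 were higher with quantile normalization, 862 without 0h replicate 4, 879 without both libraries and 94 at a fold change over 2, against 550, and 802 were lower with a mean of at least 5 FPKM and 777 at a fold change over 2, against 1323. The filter of 5 FPKM tests fewer genes, and a fold change over 2 is a stricter threshold on the same fit. For the other settings the cause was not tested.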
